A study of Mus musculus with 6 samples.

Results

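The genes that mark T follicular helper cells and the B cell help they give were examined in the spleens of lupus-prone mice with and without the interferon-γ receptor. Members were the 10 genes Cxcr5, Pdcd1, Icos, Il21, Sh2d1a, Tox2, Cd40lg, Maf, Cd40 and Icosl, taken by gene name from 44794 named loci, with the locus of highest mean where a name had more than 1. All 10 names matched. Icos alone had another locus, listed at 0 in all 6 libraries. Spleen RNA was sequenced in 3 B6.Sle1b samples, from C57BL/6 mice carrying the Sle1b lupus susceptibility interval, and in 3 Sle1b.IFNγR-/- samples, which carry the same interval and lack interferon-γ receptor function. The Sle1b.IFNγR-/- libraries are also called knockout libraries here. All mice of both groups received imiquimod, a TLR7 agonist, 3 times a week for 4 weeks, so neither group is untreated. The age of the mice is not given in the sources used here, nor is the receptor subunit that was disrupted, and whether each sample is a separate mouse is not stated, so the tests measure only the spread between these samples. The comparison asks how interferon-γ signalling shapes transcripts of the germinal centre and antibody-forming pathways, here on the side of T cell help.

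T follicular helper cells are CD4 T cells that enter B cell follicles through the chemokine receptor CXCR5 and sustain germinal centres. Their differentiation runs through ICOS on the T cell and ICOS ligand on B cells and dendritic cells, and through the adaptor SAP, encoded by Sh2d1a, which lets T and B cells stay in contact. They deliver help as CD40 ligand, which engages CD40 on B cells, and as the cytokine IL-21, while PD-1, encoded by Pdcd1, tunes the strength of the contact. In lupus-prone mice such cells support spontaneous germinal centres.

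The 6 libraries held between 4394300 and 6349824 fragments. Loci with a gene name held from 17.5% of the values in B6.Sle1b replicate 2 to 27.0% in B6.Sle1b replicate 1. B6.Sle1b replicate 1 stood apart. Its median log2 level of the ribosomal protein genes was 1.51 above the mean of each gene, against -0.42 in replicate 2, -0.019 in replicate 3 and -0.28 to -0.15 in the Sle1b.IFNγR-/- libraries. B6.Sle1b replicate 2 was thus at the low end, with the lowest ribosomal level and the lowest share in named loci. The summed level of 13 T cell markers was 690 scaled counts in B6.Sle1b replicate 1 and 362 to 461 in the other 5 libraries, and none of these markers was at 0 in any library. That of 10 B cell markers was 2019 in B6.Sle1b replicate 1 and 996 to 1151 in the others, again with no marker at 0. Fits without B6.Sle1b replicate 1 or 2, and fits scaled to or adjusted for the ribosomal protein level, are given beside part of the results. Ifngr1, the ligand-binding receptor chain, lay at 34.5 to 81.5 scaled counts in B6.Sle1b and 21.4 to 43.7 in Sle1b.IFNγR-/-. Ifngr2, the other receptor chain, lay at 7.50 to 13.2 and 4.79 to 10.1. As neither the disrupted chain nor its altered part is given, these values do not check the genotype.

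No tested gene of the set passed the test between the genotypes. Icos had the highest mean of the members over all 6 libraries, 53.8 scaled fragment counts. It lay at 64.7 ± 39.2 in B6.Sle1b against 42.8 ± 3.27 in the knockout libraries (SD, n = 3 each), where Il21 was higher. Pdcd1 was found in a single library. On the deposited scale Il21, the cytokine of T cell help, was the only member whose groups did not overlap. It was higher without the receptor, at 48.0 ± 7.98 against 35.1 ± 3.10 scaled counts. Of the named loci, 19227 had a mean of 10 or more, and over these a limma test on log2(value + 1) called 0 at a Benjamini-Hochberg adjusted p under 0.05, which is 0% of the loci and 0 of the 8 members tested. At an unadjusted p under 0.05 it held 596 loci, or 3.10%, with 1.02% higher and 2.08% lower without the receptor, and again 0 of the 8 members. Tox2 and Pdcd1 were under the minimum mean and have values but no test. Of the 8 tested members, 5 had a difference above 0 and 3 below it, with a median of 0.037 on the log2 scale, beside a median of -0.083 over all tested loci.

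**Figure D1:**
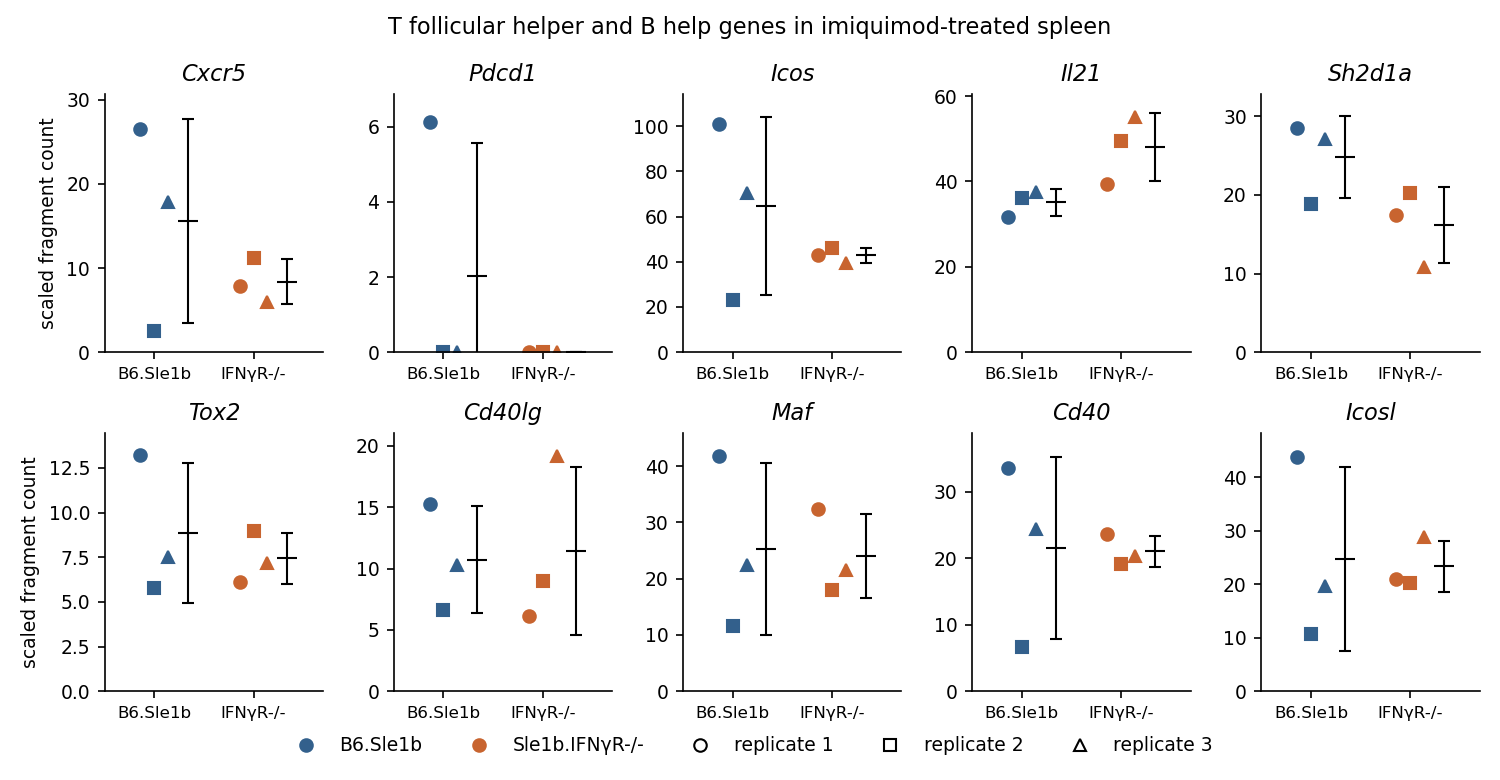
Scaled fragment counts (vertical axes, starting at 0) of the 10 genes in each library, B6.Sle1b in blue and Sle1b.IFNγR-/- in orange, with the mean and SD of 3 libraries in black and SD bars cut at 0. Il21 is the only gene whose groups are apart, and in most other panels B6.Sle1b replicate 1 is the highest and replicate 2 the lowest of its group.

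Depth limits what these genes can show. Nearly all values of a library are whole multiples of 1 step, so that each member's value could be read as whole fragments, within 0.01 of a step. Cxcr5 rested on 26, 3 and 19 fragments in B6.Sle1b, beside 9, 10 and 5 in the knockout libraries. Tox2 rested on 6 to 13 fragments a library, Cd40lg on 7 to 16, Cd40 on 8 to 33, Sh2d1a on 9 to 29, Icosl on 13 to 43, Maf on 14 to 41, Icos on 28 to 99 and Il21 on 31 to 46. Counting error is thus large for a single library of Cxcr5, Tox2 or Cd40lg, and the spread between libraries adds to it.

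To place these levels, each was divided by the gene's exonic length and set beside 1411 olfactory, vomeronasal and trace-amine receptor genes, which belong to sensory neurons and are not expected in spleen. Those receptor genes had a median of 1.31 to 1.67 scaled counts per kb, and their 95th percentile lay between 12.9 and 15.1 per kb. Per kb, Icos was highest among the members, with 18.9 ± 11.4 in B6.Sle1b against 12.5 ± 0.95 in the knockout libraries (SD, n = 3 each). It passed the 95th percentile of the sensory receptor genes in 2 of 6 libraries, B6.Sle1b replicates 1 and 3. Cd40lg, at 8.58 ± 3.49 and 9.14 ± 5.48 per kb, passed it in 1, and the other 8 members in none. Il21 stood above 83.3% to 92.0% of the sensory receptor genes and Cd40 above 57.2% to 91.2%. Cxcr5 stood above 36.5% to 88.4%, Maf above 49.3% to 80.0%, and Tox2 above 51.9% to 74.1%.

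The order of level per kb ran in Sle1b.IFNγR-/- from Icos through Cd40lg (9.14 ± 5.48), Il21 (9.12 ± 1.52), Cd40 (6.17 ± 0.68), Icosl (5.05 ± 1.02), Sh2d1a (2.94 ± 0.88), Maf (2.91 ± 0.91), Cxcr5 (2.51 ± 0.80) and Tox2 (2.19 ± 0.43) to Pdcd1, listed at 0 (SD, n = 3 each). Neighbours lay within their summed SDs except for the steps from Il21 down to Cd40, from Icosl down to Sh2d1a and from Tox2 to Pdcd1. In B6.Sle1b, where the SDs were wider, each neighbouring pair lay within its summed SDs. For comparison, the B cell markers stood on average above 91.9% (Blk) to 99.5% (Cd22) of the sensory receptor genes, and 6 of 10 at or above 95%. The T cell markers ranged from 31.3% for Cd6 to 97.7% for Cd3e, with 2 of 13 at or above 95%. Genes of T cells as a whole were thus measured closer to the level of genes not expected in spleen than genes of B cells were. The exonic length counts every annotated transcript and may exceed that of the transcript present, which lowers a level per kb.

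**Figure D2:**
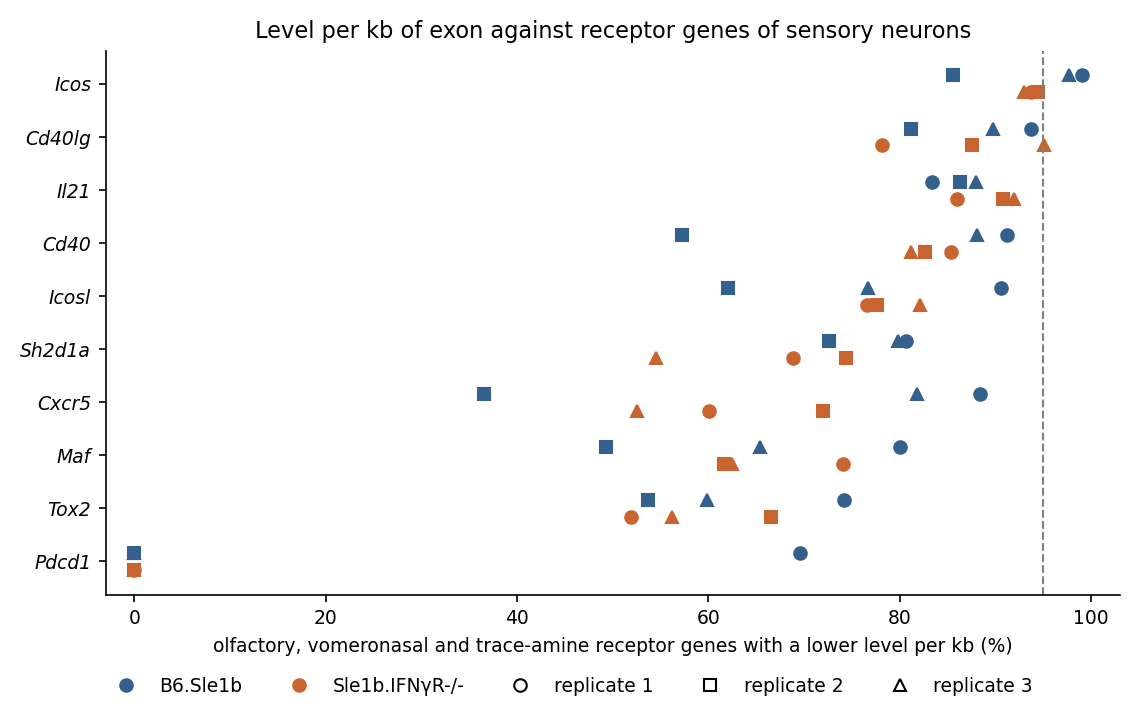
Share (%) of 1411 sensory receptor genes whose level per kb of exon was below that of each member, 1 point per library, with the 95% line dashed. Icos lies highest, Tox2 and Pdcd1 lowest, and points of B6.Sle1b replicate 2 lie far left for Cxcr5, Cd40 and Icosl.

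Among the receptors on the helper T cell, Cxcr5 (chromosome 9, 44511787 to 44561877, GRCm38, minus strand) encodes the receptor for the follicle chemokine CXCL13 and is also carried by B cells. Cxcr5 stood at 26.5, 2.47 and 17.8 scaled counts in B6.Sle1b replicates 1 to 3, beside 7.87, 11.2 and 5.99 in the knockout libraries. The lowest and the highest values were both in B6.Sle1b, whose range spanned 10.7-fold, so the groups overlapped. The log2 difference, Sle1b.IFNγR-/- minus B6.Sle1b, was -0.41 (SE 0.82, 95% interval -2.18 to 1.35). With B6.Sle1b replicate 1 left out it was 0.18, with replicate 2 left out -1.32, and 0.13 when the libraries were scaled to the ribosomal protein genes. That scaling moved the median of all tested loci from -0.083 to 0.46. Bcl9l overlaps the gene on the opposite strand, and reads of both cannot be told apart where strand was not used.

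Icos (chromosome 1, 60977927 to 61000320, plus strand) encodes the co-stimulatory receptor that drives the follicular programme. Scaled counts were 101, 23.0 and 70.3 in B6.Sle1b, beside 42.8, 46.1 and 39.5 in the knockout libraries. The knockout libraries lay close together, between the extremes of B6.Sle1b. The log2 difference was -0.35 (SE 0.46, 95% interval -1.34 to 0.64). Leaving out B6.Sle1b replicate 1 gave 0.080, leaving out replicate 2 gave -0.96, and ribosomal scaling gave 0.20. Under that scaling the median of all tested loci was 0.46. Gm37039 overlaps the gene on the same strand.

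Pdcd1 (chromosome 1, 94038305 to 94052553, minus strand) encodes the inhibitory receptor PD-1, which follicular helper cells carry at high density. Its value was 6.11 scaled counts, or 6 fragments, in B6.Sle1b replicate 1 and 0 in the other 5 libraries. A count of 0 allows up to 3 fragments, or 2.47 to 3.59 scaled counts depending on the library. The mean of 2.04 ± 3.53 (SD, n = 3) in B6.Sle1b is under that limit, so no fold between the groups is given and a difference was not detectable at this depth.

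The help signals are the cytokine IL-21 and the membrane ligand CD40L. Il21 (chromosome 3, 37222759 to 37232636, minus strand) held 31.6, 36.2 and 37.5 scaled counts in B6.Sle1b, beside 39.3, 49.4 and 55.1 in the knockout libraries. Every knockout value lay above every B6.Sle1b value. Among the tested members 1 of 8 was set apart in this direction, against 3.51% of all tested loci, and 0 of 8 in the other direction, against 5.19%. The log2 difference was 0.43 (SE 0.32, 95% interval -0.26 to 1.12), with a limma adjusted p of 0.99976. It was 0.33 to 0.56 with single libraries left out and 0.36 to 0.97 under the other alternatives. The 0.97 came from ribosomal scaling, where the median of all tested loci was 0.46. That scaling divided B6.Sle1b replicate 2 by 0.710 and Sle1b.IFNγR-/- replicate 1 by 0.852. The B6.Sle1b value then lay above the knockout value, so the groups overlapped on that scale.

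The separation of Il21 was narrow, at 37.5 against 39.3 scaled counts between the nearest libraries, and rested on few fragments. They numbered 31, 44 and 40 in B6.Sle1b, beside 45, 44 and 46 in the knockout libraries. Replicate 2 thus held 44 in each genotype before the authors' scaling between libraries. Depth differed between these replicates, with 6349824 fragments in B6.Sle1b and 4696327 in Sle1b.IFNγR-/-, so the same number is not the same level. In B6.Sle1b, Il21 did not follow the library order of the other members: it was lowest in replicate 1, where every other member was highest. The locus also holds 2 transcripts assembled by the authors beside 3 annotated ones, and Gm12534 overlaps it on the opposite strand. Its value may include reads of these, for Gm12534 where strand was not used. Assembled transcripts are not particular to Il21. Cd40 holds 6, Sh2d1a 3, Icos 2, Tox2 2, Cd40lg 1 and Icosl 1.

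Cd40lg (chromosome X, 57212143 to 57224042, plus strand) had 15.3, 6.58 and 10.3 scaled counts in B6.Sle1b, beside 6.12, 8.99 and 19.2 in the knockout libraries. The ranges overlapped almost fully, with Sle1b.IFNγR-/- replicate 3 highest. The log2 difference was 0.013 (SE 0.66, 95% interval -1.42 to 1.44), and -0.41 without that library.

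**Figure D3:**
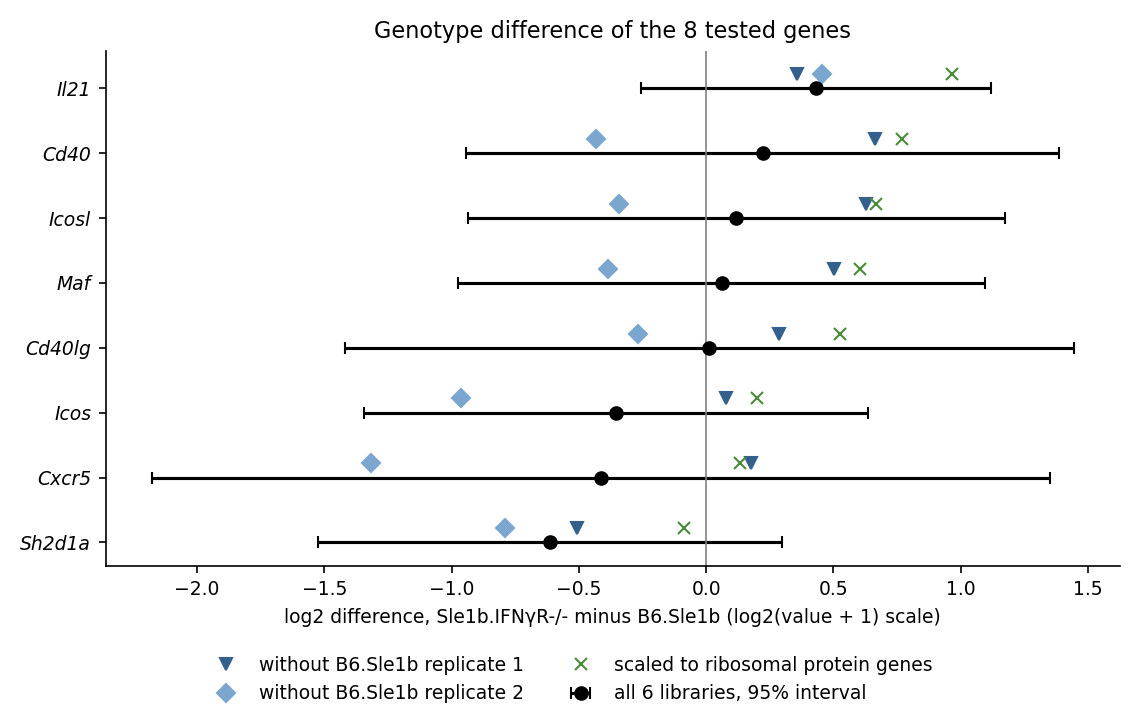
Log2 difference between genotypes (horizontal axis, Sle1b.IFNγR-/- minus B6.Sle1b on the log2(value + 1) scale) for the 8 tested genes, with the 95% interval of the limma fit in black and the estimates without B6.Sle1b replicate 1 or 2 and with ribosomal scaling above it. Each interval includes 0, and only Il21 and Sh2d1a keep their sign in all 4 estimates. Ribosomal scaling moved the median of all tested loci from -0.083 to 0.46.

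Because the promoter of a cytokine gene is where signals from the T cell receptor meet, the 250 bases before the start of Il21 are shown, together with those of Pdcd1, which T cell receptor signalling through the factor NFAT is also known to induce. Capitals mark GGAAA, the core that NFAT recognises, on either strand. The sequences are from RefSeq on GRCm38.p6, at chr3:37232637-37232886 and chr1:94052554-94052803, both read from the minus strand, 5′ to 3′.
Il21: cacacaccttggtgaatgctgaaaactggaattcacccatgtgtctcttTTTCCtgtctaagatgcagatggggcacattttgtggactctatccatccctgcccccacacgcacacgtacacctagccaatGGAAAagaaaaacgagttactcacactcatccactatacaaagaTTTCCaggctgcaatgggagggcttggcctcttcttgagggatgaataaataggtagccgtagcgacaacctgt
Pdcd1: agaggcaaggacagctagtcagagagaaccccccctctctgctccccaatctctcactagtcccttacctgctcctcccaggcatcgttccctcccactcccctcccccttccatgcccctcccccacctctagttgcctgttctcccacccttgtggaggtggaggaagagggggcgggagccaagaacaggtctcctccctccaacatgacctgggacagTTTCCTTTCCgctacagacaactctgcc
The Il21 window held 3 such cores and the Pdcd1 window 2, and 55.6% of 32851 promoter windows of that length held at least 1. Both strands were searched. Windows were also found for Icosl, with 0 cores, and Tox2, with 1 core in each of 2 of its 5 windows. Those Tox2 windows, chr2:163225203-163225452 and chr2:163225204-163225453, overlap and share the same core. A match is a description of the letters and does not show that the factor binds there.

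Inside the T cell, Sh2d1a (chromosome X, 42502453 to 42529330, plus strand) encodes SAP, the adaptor below SLAM family receptors. Scaled counts were 28.5, 18.9 and 27.2 in B6.Sle1b, beside 17.5, 20.2 and 10.8 in the knockout libraries. Only B6.Sle1b replicate 2 and Sle1b.IFNγR-/- replicate 2 kept the ranges from separating. The log2 difference of -0.61 (SE 0.42, 95% interval -1.53 to 0.30) was the furthest from 0 among the tested members and had the smallest of their p values, 0.170 unadjusted and 0.99976 adjusted in limma. It stayed below 0 with each library left out, between -0.79 and -0.36. With ribosomal scaling it was -0.087, beside a median of 0.46 over all tested loci. Tenm1 overlaps the gene on the opposite strand.

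Maf (chromosome 8, 115682942 to 115707794, minus strand) encodes the transcription factor c-Maf, which drives Il21 in helper T cells and is also made by macrophages. Scaled counts were 41.8, 11.5 and 22.5 in B6.Sle1b, beside 32.4, 18.0 and 21.6 in the knockout libraries, with the knockout values inside the B6.Sle1b range. The summed level of 8 macrophage and monocyte markers, none at 0 in any library, was 326 to 1954 in B6.Sle1b and 592 to 613 in the knockout libraries, and was also highest in replicate 1 of B6.Sle1b. As a percentage of that sum, Maf was 0.905 points higher in the knockout libraries (exact permutation p = 0.6). The log2 difference was 0.061 (SE 0.48, 95% interval -0.97 to 1.10). Gm15655 overlaps the gene on the opposite strand. Tox2 (chromosome 2, 163203125 to 163324170, plus strand), a high-mobility-group factor of the follicular helper programme, had 13.2, 5.75 and 7.50 against 6.12, 8.99 and 7.19 scaled counts. Its knockout values also lay inside the B6.Sle1b range.

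On the B cell side, Cd40 (chromosome 2, 165055627 to 165072948, plus strand) encodes the receptor through which helper T cells license B cells, and is known to be inducible by interferon-γ in macrophages. Scaled counts were 33.6, 6.58 and 24.4 in B6.Sle1b, beside 23.6, 19.1 and 20.4 in the knockout libraries. The means were almost equal, 21.5 ± 13.7 and 21.0 ± 2.32 (SD, n = 3 each), and the log2 difference was 0.22 (SE 0.54, 95% interval -0.94 to 1.39). Icosl (chromosome 10, 78069302 to 78083913, plus strand), the ICOS ligand of B cells and dendritic cells, had 43.8, 10.7 and 19.7 against 21.0, 20.2 and 28.7 scaled counts. Its log2 difference was 0.12 (SE 0.49, 95% interval -0.94 to 1.17). Without B6.Sle1b replicate 2 the differences were -0.43 for Cd40, -0.34 for Icosl, -0.39 for Maf and -0.27 for Cd40lg, and without replicate 1 they were 0.66, 0.63, 0.50 and 0.28. Leaving out a knockout library also turned the sign of Maf (-0.17 without replicate 1), and of Icosl and Cd40lg (-0.035 and -0.41 without replicate 3). Their intervals reach at least 0.94 below 0 and 1.10 above it. Ribosomal scaling gave 0.77 for Cd40, 0.67 for Icosl, 0.61 for Maf and 0.53 for Cd40lg, beside a median of 0.46 over all tested loci.

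The spread within B6.Sle1b was shared by most members. In 8 of the 10 genes the B6.Sle1b libraries ran from replicate 1, the highest, through replicate 3 to replicate 2, the order of the ribosomal protein level, against 33.0% of all tested loci. Il21 ran in another order, and Pdcd1 was tied at 0 in replicates 2 and 3. Highest over lowest library was 5.11-fold for Cd40 within B6.Sle1b and 1.24-fold within Sle1b.IFNγR-/-, and 4.38-fold and 1.17-fold for Icos.

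In bulk spleen, fewer cells of a type and less RNA per cell cannot be told apart. Each member was therefore also expressed as a percentage of the summed T cell markers of its library, or of the B cell markers for Cxcr5, Cd40 and Icosl, and the 10 ratios were each tested between genotypes by two-sided exact permutation, whose smallest p with 3 against 3 libraries is 0.1. Il21 was 4.58%, 9.05% and 8.13% of the T cell marker sum in B6.Sle1b, beside 10.9%, 11.7% and 12.8% in the knockout libraries (exact p = 0.1, unadjusted). It was the only ratio without overlap, and the lowest one came from B6.Sle1b replicate 1, whose T cell marker sum was the highest. Icos was 11.9% ± 5.30 and 10.6% ± 1.34 of that sum (exact permutation p = 0.8), and Sh2d1a 4.92% ± 0.894 and 4.04% ± 1.33 (exact permutation p = 0.6), with SD and n = 3 each.

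The other T cell genes overlapped as well. Cd40lg was 2.03% ± 0.335 and 2.76% ± 1.49 of the T cell marker sum, Tox2 1.66% ± 0.242 and 1.83% ± 0.255, and Maf 4.60% ± 1.61 and 6.07% ± 2.52 (SD, n = 3 each), with exact permutation p values of 0.8, 0.4 and 0.5. Relative to B cell markers, Cxcr5 was 1.04% ± 0.693 and 0.782% ± 0.243, Cd40 1.48% ± 0.746 and 1.97% ± 0.320, and Icosl 1.65% ± 0.551 and 2.17% ± 0.381 (SD, n = 3 each), with exact permutation p values of 0.7, 0.4 and 0.3. All 3 were lowest in B6.Sle1b replicate 2, at 0.248%, 0.660% and 1.07%, so these genes lay lower in that library than its B cell markers did. Pdcd1, found in 1 library, was 0.886% of the T cell marker sum there.

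**Figure D4:**
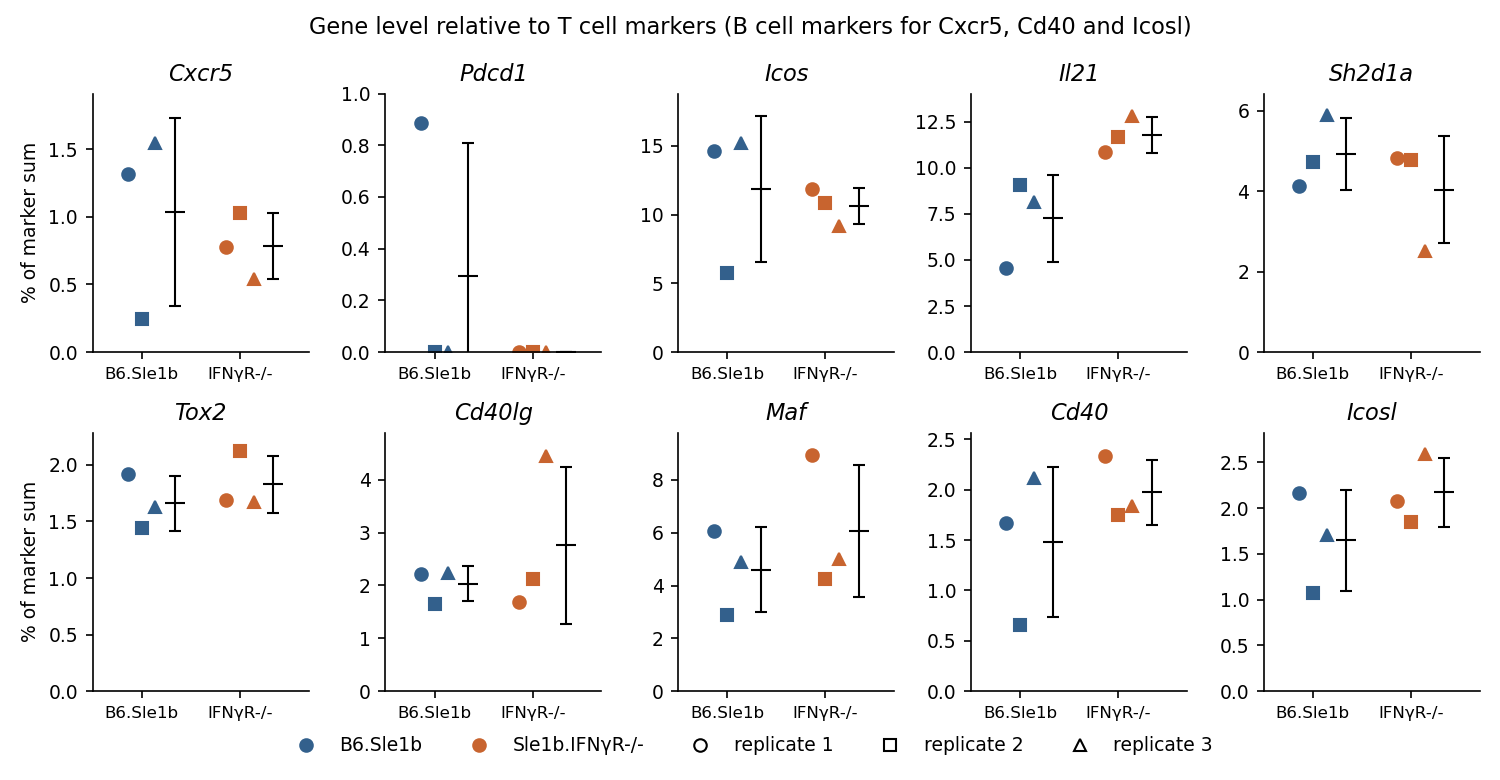
Each member as a percentage (vertical axes, starting at 0) of the summed T cell markers of the same library, or of the B cell markers for Cxcr5, Cd40 and Icosl, with symbols as in the plot of scaled counts and the mean and SD of 3 libraries in black. Il21 is apart between groups, at 4.58% to 9.05% and 10.9% to 12.8%, and the other 9 genes overlap.

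The wider pathway was followed in 5 lists with 69 entries, of which 50 were tested. None passed (0% of all tested loci did), and 4 had an unadjusted p under 0.05, against 3.10% of all tested loci. Of the 50, 44 had a difference below 0, beside 58.1% of all tested loci, with medians of -0.33 and -0.083. Groups were apart with lower knockout values in 5 of 50, against 5.19% of all tested loci, and with higher values in 0, against 3.51%. With median-ratio scaling 43 of 50 were below 0, beside 50.5% of all loci. With ribosomal scaling 16 of 50 were, beside 15.3%, and the median of all loci moved from -0.083 to 0.46. Of single B6.Sle1b libraries, leaving out replicate 1 gave 30 of 50, beside 48.4%, and leaving out replicate 2 gave 47 of 50, beside 63.1%.

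Of the transcription factors of the follicular helper programme, 9 of 11 tested genes were below 0 (median -0.38), beside 58.1% of all tested loci. Groups were apart with lower knockout values in 1 of 11, against 5.19%. The list median was -0.042 without B6.Sle1b replicate 1 and 0.17 with ribosomal scaling. The medians of all tested loci were then 0.019 and 0.46. Bcl6, the factor that defines both follicular helper and germinal centre B cells, lay at 72.0 ± 30.4 and 28.3 ± 7.27 scaled counts (SD, n = 3 each). Its groups were apart, with a log2 difference of -1.25 (limma adjusted p = 0.99976). Pou2af1, a B cell coactivator that also acts in helper T cells, ran from 66.6 to 653 in B6.Sle1b and from 68.3 to 84.3 in the knockout libraries. The plasma cell marker sum was also highest in the same B6.Sle1b replicate 1, at 884 against 111 to 234 in the other 5 libraries, with Tnfrsf17 at 0 in all 6, and its part in the values of Pou2af1 and Prdm1 was not tested. Tcf7 and Lef1, factors that act early in the programme, had differences of 0.12 and 0.42. Ascl2 and Batf were under the minimum mean.

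Of the genes that oppose the programme or mark regulatory T cells, 7 of 8 tested genes were below 0 (median -0.45), beside 58.1% of all tested loci, and 3 of 8 had groups apart with lower knockout values, against 5.19%. The list median was -0.39 without B6.Sle1b replicate 1 and -0.032 with ribosomal scaling. Stat5a, which carries IL-2 signals against follicular helper cells, had 41.8, 49.3 and 37.5 scaled counts in B6.Sle1b and 21.9, 24.7 and 25.2 without the receptor, with a log2 difference of -0.81. Prdm1, which encodes the repressor Blimp-1, lay at 70.2 ± 14.5 and 42.7 ± 7.67 (SD, n = 3 each). Ctla4, the inhibitory receptor, lay at 45.2 to 56.2 and 35.9 to 40.5, also apart. Foxp3, at a locus shared with Ppp1r3fos, overlapped at 77.8 to 98.8 and 56.8 to 77.9.

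Of the partners of the member receptors and ligands, 15 of 16 tested genes were below 0 (median -0.34), beside 58.1% of all tested loci. Groups were apart with lower knockout values in 1 of 16, against 5.19%. The list median was -0.032 without B6.Sle1b replicate 1 and 0.22 with ribosomal scaling. Tigit, an inhibitory receptor of T cells, had 69.3, 16.4 and 38.4 scaled counts in B6.Sle1b, beside 1.75, 19.1 and 14.4 in the knockout libraries. The groups overlapped, with a difference of -1.94 (limma adjusted p = 0.99976). The 1.75 is under the value of 3 fragments in that library, 2.62, so the difference rests in part on a value near the detection limit. Cd274, which encodes the PD-1 ligand PD-L1 and is inducible by interferon-γ, had 116, 83.0 and 77.8 against 53.3, 60.7 and 68.3. Its groups were apart, with a difference of -0.58 (limma adjusted p = 0.99976). Cd244, a SLAM family receptor that SAP binds, overlapped. Cxcl13, the CXCR5 ligand, lay at 6.58 to 40.8 and 10.8 to 17.5, and Il21r, the receptor for IL-21, at 5.62 to 24.5 and 4.79 to 23.6.

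Cytokines and receptors that act upstream of follicular helper T cells were mostly too low to test. Only 3 of 11 entries passed the minimum mean, Il1b, Il6ra and Il6st, with differences of -0.22, 0.13 and -0.092, and Il4 was listed at 0 in all 6 libraries. Among signalling genes below CD40, ICOS and SAP, 11 of 12 tested were below 0 (median -0.31), beside 58.1% of all tested loci. The list median was -0.032 without B6.Sle1b replicate 1 and 0.23 with ribosomal scaling. The smallest p among these signalling genes belonged to Traf1, an adaptor induced by CD40 signalling, at 22.2 to 42.8 and 14.6 to 24.0. Pik3r1, the regulatory subunit of the kinase that ICOS recruits, lay at 76.5 to 159 and 68.3 to 101, and Fyn, the kinase that SAP recruits, at 4.93 to 64.2 and 10.1 to 13.2. All 3 overlapped between groups.

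**Figure D5:**
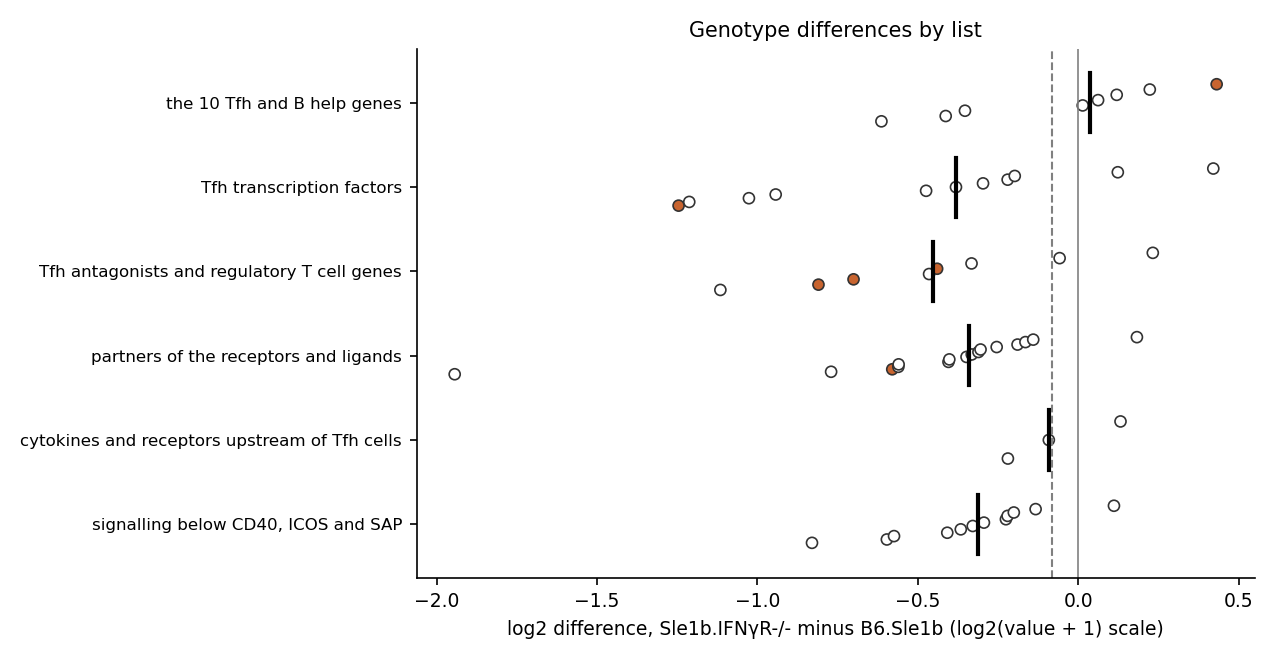
Log2 difference between genotypes (horizontal axis, log2(value + 1) scale) of each tested gene of the member set and of the 5 lists, with list medians as black bars, the median of all tested loci dashed, and filled points where the groups do not overlap. The members spread around 0, with a median of 0.037, while 4 of the 5 lists have medians from -0.45 to -0.31 on the deposited scale.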

How the data were processed

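Spleen RNA libraries of 6 samples, 3 per genotype, were analysed from 1 table. Its values are a signal: the authors deposited fragment counts of each gene locus after quartile scaling of the libraries, as the file headers and the table's own name state. The submitters' processing notes name GRCm38, Cufflinks 2.2.1, TopHat2 2.0.9 and CASAVA. The libraries were made with the NuGEN Ovation V2 amplification kit, per the labels' protocols. How strand and multi-mapped reads were handled was not stated. Rows (1530481) were collapsed to 426574 loci, and 24 other per-sample columns were not used. In each library 99.8% of positive values were whole multiples of a step of 0.822 to 1.198, within 0.01 of a step. The rest kept counts from being recovered in full, so count tests planned as alternatives were not run and the branch for scaled values applied.

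The test was limma 3.58.1 (R 4.3.3), with a trend on intensity, on log2(value + 1) of named loci whose mean reached 10, with genotype as the only term and Benjamini-Hochberg adjustment. Differences on this scale understate changes of low genes. In data simulated from this comparison's 19227 loci, 1% of 100 genes changed 2-fold and 11% of 100 changed 4-fold were recovered, with 0 false calls, so most changes of these sizes would be missed. Ratios used exact permutation tests in scipy 1.17.1 (python 3.11.15, pandas 2.3.3, numpy 2.4.6, matplotlib 3.10.9). Coordinates and exonic lengths are from GENCODE mouse release M21. Members and lists were chosen with earlier results of these data known, and the comparison with sensory receptor genes after the values were seen. All members are named, with up to 3 genes of smallest p per list, except 1 that is not reported here. Ctla4, Tcf7, Lef1, Cxcl13 and Il21r, and the genes that were not tested, were named after their values were seen. Of 162 list entries 161 matched.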

Additional observations from a re-analysis of the deposited data

How the results depend on the processing

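Over 14 alternatives, 1 of which (a minimum mean of 50) left only Icos tested, no member passed the threshold (lowest adjusted p 0.415), and 13 of 105 values had the other sign. The count of loci called was 0, but 1 with ribosomal scaling, 8 with the ribosomal level as a covariate and 0 to 5 with single libraries left out, 5 each without B6.Sle1b replicate 1 or 2. It was 0 with median-ratio scaling, both other filters, both other pseudocounts and the replicate block. No pathway gene passed in any setting. With ribosomal scaling Cxcr5 was 0.13 and Icos 0.20, and with the covariate 0.28 and 0.14. The medians of all tested loci were then 0.46 and 0.016, so under ribosomal scaling both genes lay below that median. Leaving out single libraries gave -1.32 to 0.18 for Cxcr5, -0.96 to 0.080 for Icos, -0.41 to 0.34 for Cd40lg, -0.39 to 0.50 for Maf, -0.43 to 0.66 for Cd40 and -0.34 to 0.63 for Icosl. With single libraries left out, the difference in marker ratio ran from -0.65 to 0.0022 points for Cxcr5, -4.30 to 0.44 for Icos and -0.13 to 1.26 for Cd40lg, and kept its sign at 0.024 to 2.37 for Maf, -1.28 to -0.12 for Sh2d1a and 0.082 to 0.81 for Cd40. Over T cell markers the Cxcr5 ratio differed by -0.70 points (exact permutation p = 0.6). Replicate numbers were shared by name only (correlations of deviations 0.012, -0.027 and -0.011), and with the replicate block 0 loci were called. Count tests were not run, because whole fragments could not be recovered for all loci. With geometric-mean denominators the Icosl ratio gave an exact permutation p of 0.1, the smallest possible. The causes were not tested. Members rest on 0 to 99 fragments a library, which limits all of these values.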
